A study of Mus musculus with 3 samples.

Results

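Axl, Mertk, Gas6, Pros1 and Mfge8 encode receptors and bridging molecules through which phagocytes take up dying cells. They were measured in single cells of control mouse liver and of mouse liver after electroporation. These 5 genes were taken by name from the 19091 genes of the count files. Their choice used no threshold on a measured value, but earlier results of these data were known when it was made. Axl and Mertk are receptor tyrosine kinases of the TAM family, named after Tyro3, Axl and Mertk. Gas6 and Pros1 encode soluble ligands that bind phosphatidylserine, the lipid that dying cells expose, and join it to receptors of this family. Mfge8 encodes a secreted glycoprotein that also binds phosphatidylserine and is recognised by integrins of the phagocyte. In liver, Mertk and Axl are known from resident macrophages, the Kupffer cells, and removal of dead cells by these receptors is a known step between tissue damage and repair.

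The cells came from livers of C57BL/6 mice and were profiled by Drop-seq, in which single cells are captured in droplets with barcoded beads and their transcripts are counted as unique molecular identifiers (UMIs). The 3 libraries were a control (sham surgery with tissue taken after 1 day per the labels), livers 1 day after irreversible electroporation (IRE 1 day) and livers 7 days after it (IRE 7 days). IRE permeabilises cell membranes for good with short electric pulses and so kills cells between the electrodes, here with 8 pulses of 50 ms at 75 V per the labels. The study's methods give a lower voltage and take the control tissue from the matching uninjured area without naming sham surgery. A 4 mm punch of 3 livers was pooled into each library, so no condition had a replicate and no difference between libraries could be tested. All intervals below are 95% intervals that cover counting error only.

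Barcodes with at least 200 detected genes were taken as cells, 10386 in control, 9253 at IRE 1 day and 5624 at IRE 7 days, with a median depth of 456.5 to 595 UMIs. The libraries differed in more than the label. Mitochondrial genes took 20.5% of the UMIs of control cells, 21.7% at IRE 1 day and 4.10% at IRE 7 days, and hepatocyte gate genes such as Alb took 2.91% at IRE 1 day against 0.158% in control. Between 44 and 149 barcode sequences were shared by a pair of libraries, and 13 by all of them. Cells were sorted into classes by marker genes, a class needing at least 2 of its markers and at least 2 times the marker UMIs of any rival. This gave a class to 63.0 to 64.8% of the cells of a library. Of control cells, 14.3% were Kupffer-like, against 23.1% at IRE 1 day and 2.58% at IRE 7 days, while 13.8%, 35.4% and 0.907% were endothelial-like. The share of macrophage-like cells gated on Gpnmb, Trem2 and related genes was 5.98% in control, 0.0432% at IRE 1 day and 0.676% at IRE 7 days. For mesenchymal-like cells it was 4.55%, 0.119% and 0.0356%, and for monocyte-like cells 14.4%, 0.735% and 15.4%. Macrophage-like cells gated on Arg1 and Ccl2 made up 20.1% and neutrophil-like cells 21.7% of the cells at IRE 7 days, against 0.231% and 2.20% in control and 0.0973% and 0.238% at IRE 1 day. Cells of kinds known from injured liver were thus frequent in the library labelled control and scarce in the library labelled IRE 1 day. Nothing in the files checks the labels, and the libraries are named by them throughout.

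Markers that the gates had not used were compared inside and outside each class. All 4 check markers of Kupffer-like cells (C1qa, C1qb, C1qc and Emr1) were at least 4.00 times higher in the class than elsewhere in every library. The 4 check markers of endothelial-like cells were 6.08 to 19.9 times higher in control, 1.82 to 3.81 times at IRE 1 day and 27.0 to 45.1 times at IRE 7 days. Those of mesenchymal-like cells were 4.69 to 45.6 times higher in control, and those of cholangiocyte-like cells at least 15.6 times higher in control and at IRE 1 day. The Gpnmb and Trem2 class passed 2-fold in 1 of 4 general macrophage markers in control (Cd68, 4.07 times), the Arg1 and Ccl2 class in 0 of 4 at IRE 7 days and monocyte-like cells in 1 of 4 in every library (Lyz2), so these names stand for their gate genes. The 68 monocyte-like cells of IRE 1 day were led by the antibody genes Igkv10-96, Igha and Igj of plasma cells, which goes against their name, and they are called by their gate here.

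The start of each gene is shown for 2 pairs of members whose patterns are set side by side below. The first pair is the receptors Axl and Mertk, both highest in Kupffer-like cells. The second is Gas6 and Mfge8, the bridging molecules with the lowest ratios of IRE 7 days to control. All 5 members were lowest at IRE 7 days. RefSeq promoters of build GRCm38.p6 were matched for 5 of 5 members, each from 250 bases before to 50 after the start and read 5′ to 3′ on the gene's strand. Capitals mark the GC box GGGCGG or its reverse complement CCGCCC.

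Axl, chr7:25788684-25788983, minus strand: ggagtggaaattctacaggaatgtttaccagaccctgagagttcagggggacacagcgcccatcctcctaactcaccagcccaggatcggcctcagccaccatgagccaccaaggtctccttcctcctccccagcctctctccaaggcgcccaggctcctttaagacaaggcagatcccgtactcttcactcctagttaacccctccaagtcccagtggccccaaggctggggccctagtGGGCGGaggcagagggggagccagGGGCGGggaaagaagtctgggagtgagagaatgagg
Mertk, chr2:128698665-128698964, plus strand: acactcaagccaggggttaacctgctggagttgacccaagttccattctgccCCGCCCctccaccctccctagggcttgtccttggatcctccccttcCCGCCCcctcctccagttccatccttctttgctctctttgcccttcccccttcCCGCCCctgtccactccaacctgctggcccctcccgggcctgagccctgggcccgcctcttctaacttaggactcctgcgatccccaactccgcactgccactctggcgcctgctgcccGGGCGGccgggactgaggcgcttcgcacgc
Gas6, chr8:13494486-13494785, minus strand: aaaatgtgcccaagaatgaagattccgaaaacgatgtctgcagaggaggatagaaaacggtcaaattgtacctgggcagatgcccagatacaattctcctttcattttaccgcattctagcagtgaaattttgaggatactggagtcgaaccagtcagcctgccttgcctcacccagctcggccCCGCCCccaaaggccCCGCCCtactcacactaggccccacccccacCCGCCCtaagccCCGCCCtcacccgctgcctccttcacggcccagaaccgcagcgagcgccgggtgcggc
Mfge8, chr7:79149011-79149310, minus strand: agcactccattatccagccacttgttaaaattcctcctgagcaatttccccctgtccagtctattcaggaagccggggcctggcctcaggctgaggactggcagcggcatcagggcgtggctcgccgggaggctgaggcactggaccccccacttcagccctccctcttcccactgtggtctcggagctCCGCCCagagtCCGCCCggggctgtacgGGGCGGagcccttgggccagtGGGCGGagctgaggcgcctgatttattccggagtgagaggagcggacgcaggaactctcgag

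The GC box stood 2 times in the Axl window, 4 times each in those of Mertk, Gas6 and Mfge8, and 5 times in that of Pros1, which is not shown. Of 32851 RefSeq promoters of this length, 35.7% hold it on either strand. The member windows were also richer in G and C, with 58.3 to 66.7% against a median of 52.7% over all promoters. The letters TATAAA stood in none of the 5 windows and in 13.6% of all promoters. The letters GAGGAA on either strand, the core bound by the myeloid factor PU.1, stood 1 time each in Axl and Mfge8 and in 28.3% of all promoters. These matches describe the windows only, and no overlap between motifs was removed.

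Over all cells, the receptors were found at similar or higher levels at IRE 1 day and at lower levels at IRE 7 days. Axl had 817 UMIs in control, 681 at IRE 1 day and 113 at IRE 7 days, which gave 102 counts per 1000000 UMIs (CPM; 95.1 to 109), 111 (103 to 120) and 36.9 (30.4 to 44.4). Control and IRE 1 day overlapped, and IRE 7 days lay below both. Mertk had 1339, 1514 and 242 UMIs, or 167 CPM (158 to 176), 248 (236 to 261) and 79.1 (69.5 to 89.7), with all intervals apart. Relative to control, Axl was 1.09 times as high at IRE 1 day (0.986 to 1.21) and Mertk 1.48 times (1.38 to 1.60). By IRE 7 days Axl was 2.76 times lower (log2 ratio -1.46) and Mertk 2.11 times lower (log2 ratio -1.08). Tyro3, the other TAM receptor, was close to undetected, with 6, 5 and 1 UMIs in the libraries, or 0.749, 0.819 and 0.327 CPM.

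The bridging molecules spanned a wider range. Gas6 had 622, 786 and 24 UMIs, or 77.6 CPM (71.6 to 84.0) in control, 129 (120 to 138) at IRE 1 day and 7.85 (5.03 to 11.7) at IRE 7 days. Pros1 had 379, 422 and 65 UMIs, or 47.3 CPM (42.7 to 52.3), 69.1 (62.7 to 76.0) and 21.2 (16.4 to 27.1). Both ligands of the TAM receptors were thus highest at IRE 1 day. Mfge8 had 855, 407 and 29 UMIs, or 107 CPM (99.7 to 114), 66.6 (60.3 to 73.4) and 9.48 (6.35 to 13.6), and was highest in control. The ratio of IRE 1 day to control was 1.66 for Gas6 (1.49 to 1.84), 1.46 for Pros1 (1.27 to 1.68) and 0.625 for Mfge8 (0.554 to 0.704). By IRE 7 days Gas6 was 9.89 times lower than control, Mfge8 11.3 times lower and Pros1 2.23 times lower, with log2 ratios of -3.31, -3.49 and -1.15.

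**Figure D1:**
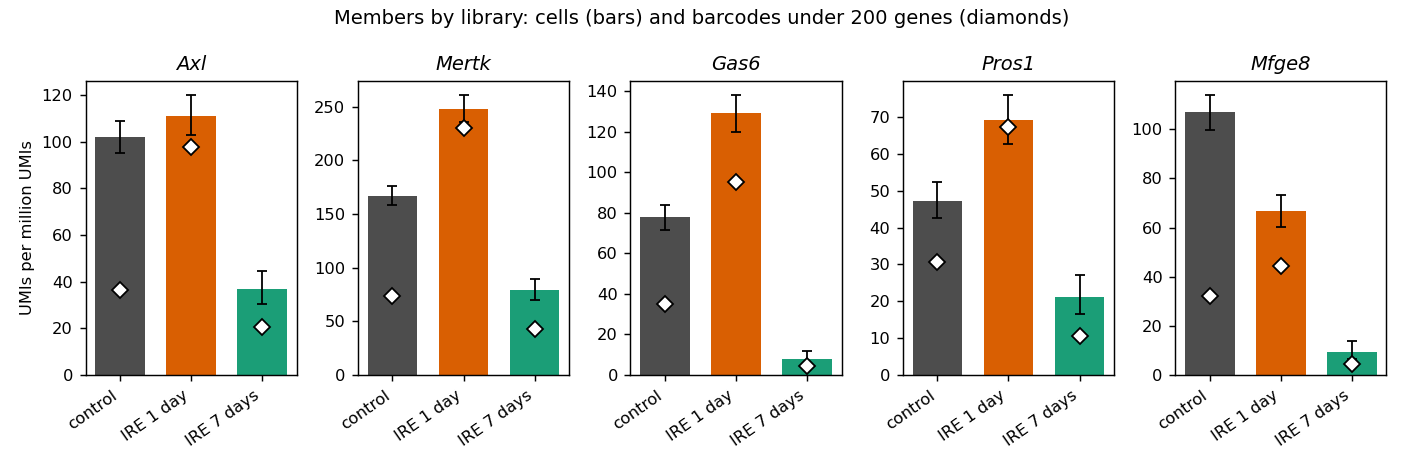
CPM (UMIs per 1000000 UMIs) of each member (vertical axes, 1 scale per gene) in the control, IRE 1 day and IRE 7 days libraries. Bars are cells with 95% Poisson intervals and diamonds are barcodes under 200 genes. IRE 7 days is lowest for all 5 genes, and the diamonds of IRE 1 day come close to the bars for Axl, Mertk and Pros1.

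Against all genes, a gene was counted when the pair of libraries held at least 20 of its UMIs and it was called when it differed at least 2-fold. At IRE 1 day 0 of 5 members were called in either direction, where 13.6% of 12988 genes were called higher and 7.14% lower. At IRE 7 days 5 of 5 members were called lower than control and 0 higher, against 26.3% of 12074 genes called lower and 8.79% higher. The median log2 ratio there was -1.46 over the members and -0.29 over all genes. Between IRE 7 days and IRE 1 day the same 5 of 5 were called lower, against 31.8% of 12116 genes lower and 11.3% higher, with ratios from 0.0610 for Gas6 to 0.331 for Axl. These comparisons share libraries and are not independent. Pros1 fell short of 2-fold at IRE 7 days (log2 ratio -0.69 against control) when only barcodes with at least 500 genes were kept.

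Barcodes under 200 genes can hold free RNA and damaged cells. Their median depth was 295 UMIs in control, 267 at IRE 1 day and 215 at IRE 7 days, against 595, 509 and 456.5 in cells. Droplets without a cell were not told apart from shallow cells among them. Their content is thus only a rough measure of what a droplet could take up without a cell that expresses the gene. In control they held 36.2 CPM of Axl, 73.8 of Mertk, 34.7 of Gas6, 30.7 of Pros1 and 32.2 of Mfge8, below the level in cells for every member. Those of IRE 1 day held 97.7, 230, 94.9, 67.2 and 44.4 CPM, and for Axl, Mertk and Pros1 their intervals overlapped those of the cells. The barcodes of IRE 7 days held 20.4, 42.7, 4.60, 10.5 and 4.60 CPM. T cell-like and B cell-like cells were taken as cells without these genes, an assumption that was not tested. In control they held 5 UMIs of Axl, 6 of Mertk, 0 of Gas6, 1 of Pros1 and 10 of Mfge8, at most 38.3 CPM for any member in both classes together. Of the 10 UMIs of Mfge8, 5 lay in the 107 B cell-like cells, at 78.7 CPM against 25.4 in T cell-like cells. The B cell-like cells of control passed 2-fold in only 2 of their 4 check markers. In the 144 T cell-like and B cell-like cells of IRE 1 day the levels were 53.0 CPM for Axl (14.4 to 136), 79.5 for Mertk (29.2 to 173), 92.8 for Gas6 (37.3 to 191), 53.0 for Pros1 (14.4 to 136) and 26.5 for Mfge8 (3.21 to 95.8). Levels of IRE 1 day that lay within these intervals include Axl, Gas6, Pros1 and Mfge8 in endothelial-like cells and Gas6, Pros1 and Mfge8 in Kupffer-like cells, and they are not read as expression on their own. For Mertk at IRE 1 day the backgrounds differed. The barcodes under 200 genes held 230 CPM (211 to 249), above the interval of the T cell-like and B cell-like cells.

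Axl had its highest class level in Kupffer-like cells in every library, though at IRE 1 day the interval overlapped that of the next class. Kupffer-like cells held 313 CPM in control, from 447 UMIs in 1483 cells, 252 at IRE 1 day and 195 at IRE 7 days. In control the next classes were mesenchymal-like cells with 107 (81.1 to 139 by counting), the Gpnmb and Trem2 class with 85.2 and monocyte-like cells with 53.7. Kupffer-like cells stood apart from the second class by 2.92 times (2.21 to 3.92), whereas the classes from second to last overlapped with their neighbours. Endothelial-like cells held 25.4 CPM, 12.3 times less than Kupffer-like cells (8.10 to 19.6). At IRE 1 day Kupffer-like cells exceeded endothelial-like cells 4.03 times (3.27 to 5.01). They exceeded the monocyte-gated cells, with 97.7 CPM from 4 UMIs, 2.58 times (1.00 to 9.53). At IRE 7 days Kupffer-like cells exceeded monocyte-like cells 3.50 times (1.91 to 6.35) and the Arg1 and Ccl2 class, with 25.7 CPM, 7.58 times (3.84 to 15.2). After each cell was thinned to 300 UMIs, Axl was found in 9.36% of control Kupffer-like cells (7.91 to 11.0%) against 0.712% of T cell-like cells, and unthinned in 24.4% and 1.42%, at median depths of 787 and 560 UMIs.

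Mertk had a second site in endothelial cells. Kupffer-like cells held 445 CPM in control, 387 at IRE 1 day and 354 at IRE 7 days. Endothelial-like cells held 200, 269 and 306 CPM, the last from 8 UMIs. In control Kupffer-like cells stood 2.23 times above endothelial-like cells (1.88 to 2.64) and 1.97 times above the Gpnmb and Trem2 class (1.66 to 2.35), which held 225. The latter classes overlapped. Monocyte-like cells of control held 30.4 CPM, 14.6 times less than Kupffer-like cells (10.1 to 21.9). At IRE 1 day the gap between Kupffer-like and endothelial-like cells narrowed to 1.44 times (1.28 to 1.63), and at IRE 7 days it was 1.16 times with an interval of 0.535 to 2.87. The barcodes under 200 genes held 230 CPM of Mertk at IRE 1 day and 73.8 in control. T cell-like and B cell-like cells held 79.5 and 23.0 CPM in these libraries. The part of free RNA in the narrower gap was not tested. Thinned to 300 UMIs, Mertk was found in 11.6% of control Kupffer-like cells (9.96 to 13.3%), 6.03% of endothelial-like cells (4.85 to 7.41%) and 0.712% of T cell-like cells, and unthinned in 30.8%, 10.9% and 2.14%.

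Whether the 2 receptors occurred in the same Kupffer-like cells was read from thinned cells. Of 168 control cells with Mertk, 12.5% also held Axl (7.91 to 18.5%), against 8.95% of the 1285 cells without Mertk (7.45 to 10.6%). The shares of IRE 1 day were 7.80% (4.53 to 12.4%) and 7.15% (6.02 to 8.41%). The intervals overlapped in both libraries, so that at this depth no tendency of the receptors to share or avoid cells could be detected.

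**Figure D2:**
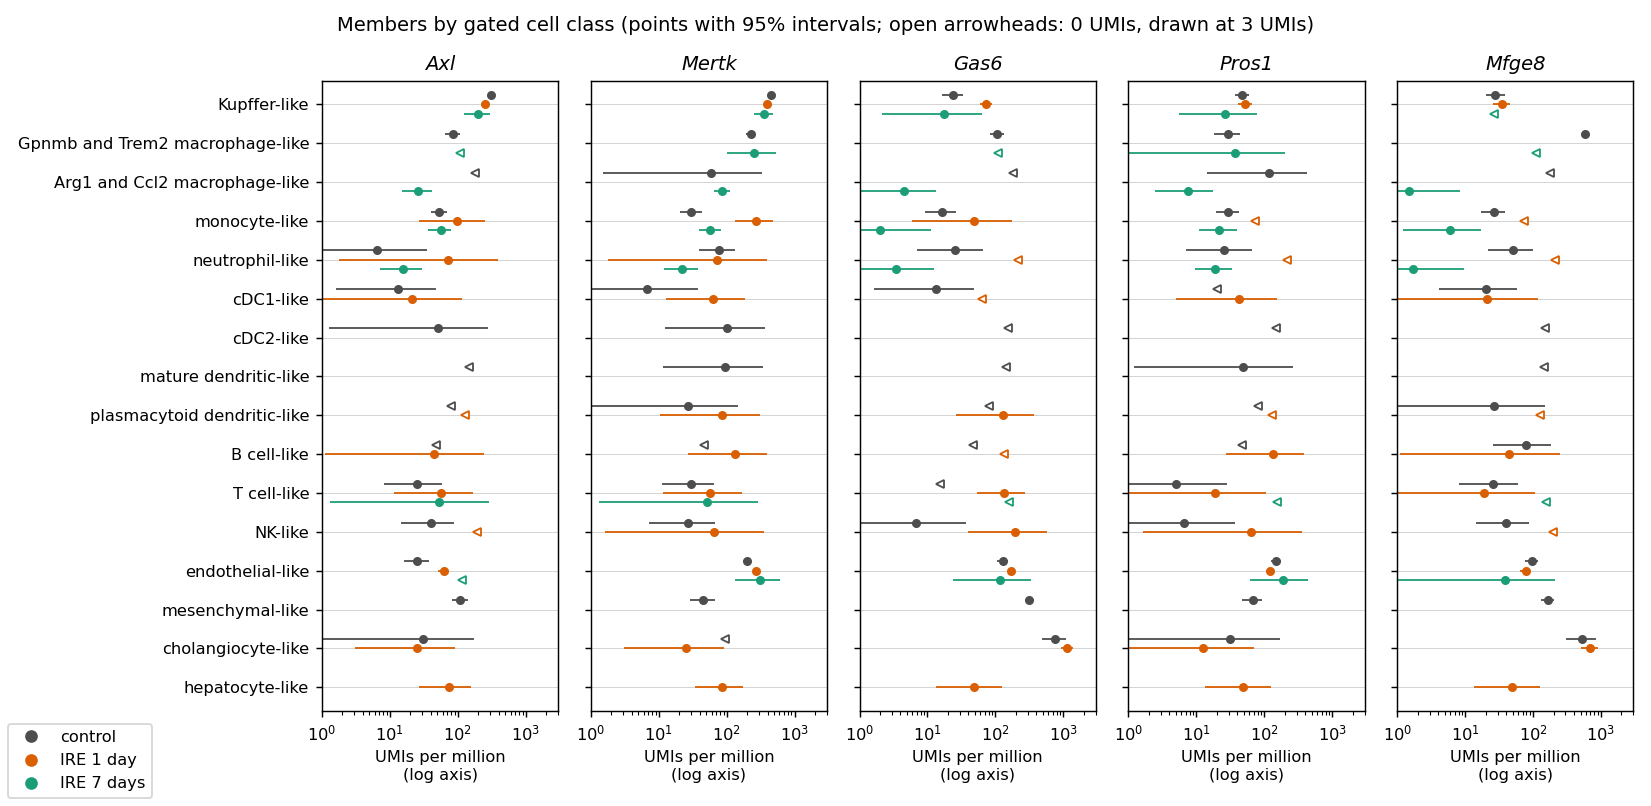
CPM of each member (horizontal log axes) in the gated cell classes with at least 20 cells (rows). Points are libraries with 95% Poisson intervals, cut at the axis where wider, and open arrowheads mark 0 UMIs and are drawn at the level of 3 UMIs. In control Axl and Mertk peak in Kupffer-like cells, Gas6 in cholangiocyte-like and mesenchymal-like cells, Pros1 in endothelial-like cells and Mfge8 in the Gpnmb and Trem2 class and cholangiocyte-like cells.

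The ligands had their highest levels in other classes than Axl and Mertk, although classes overlapped: endothelial-like cells and the Gpnmb and Trem2 class of control held Mertk beside Gas6, and mesenchymal-like cells Axl beside Gas6. Gas6 was highest in cholangiocyte-like cells, the lining cells of bile ducts, with 746 CPM in control (24 UMIs in 31 cells) and 1147 at IRE 1 day (91 UMIs in 24 cells, of which 24 came from 1 deep cell and the level without it was 1053). Mesenchymal-like cells of control followed with 316 CPM, 2.36 times less (1.47 to 3.64), then endothelial-like cells with 128 and the Gpnmb and Trem2 class with 106. Kupffer-like cells held 23.8. Endothelial-like cells of IRE 1 day held 168 (150 to 188), which overlapped T cell-like cells of that library at 132 (53.2 to 273). In control, endothelial-like cells thus exceeded Kupffer-like cells 5.39 times (3.65 to 8.14) and mesenchymal-like cells exceeded endothelial-like cells 2.47 times (1.93 to 3.15). Thinned, Gas6 was found in 6 of 30 control cholangiocyte-like cells (7.71 to 38.6%), in 8.48% of mesenchymal-like cells (6.10 to 11.4%), in 3.34% of endothelial-like cells and in 0 of 281 T cell-like cells, which allows a share of cells with a UMI of up to 1.07% at 3 counts and 1.30% by the exact limit. The unthinned shares were 48.4%, 20.7%, 7.04% and 0.

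Within the mesenchymal-like cells of control, Gas6 was higher in the 107 cells gated on Dpt, Mfap5 and related fibroblast genes, at 480 CPM (362 to 625), than in the 265 cells without a sub-gate, at 245 (188 to 312). The 85 cells gated on Postn, Aspn and related matrix genes held 322 (233 to 434), which overlapped both. Only 16 cells passed the gate of stellate cells, the liver's own pericytes, and they held 6 UMIs of Gas6. Mfge8 stood at 218 CPM (141 to 322) in the Dpt and Mfap5 cells and at 127 (74.2 to 204) in the Postn and Aspn cells. The intervals overlapped.

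Pros1 was highest in endothelial-like cells of control and IRE 7 days, with 149 CPM in control, 121 at IRE 1 day and 191 at IRE 7 days, the last from 5 UMIs. B cell-like cells of IRE 1 day held 133, from 3 UMIs only. Mesenchymal-like cells of control held 67.6, 2.20 times less (1.52 to 3.28), and Kupffer-like cells 47.5, 3.13 times less (2.32 to 4.26). The Arg1 and Ccl2 class held 119 in control, from 2 UMIs in 24 cells, and 7.57 at IRE 7 days. Hepatocytes are a known source of protein S in blood. The 108 hepatocyte-like cells of IRE 1 day held 48.6 CPM, from 4 UMIs (13.3 to 125). This interval takes in the 67.2 CPM of the barcodes under 200 genes and the 121 of endothelial-like cells, and does not tell them apart. Thinned, Pros1 was found in 4.19% of control endothelial-like cells (3.20 to 5.37%) and 0.895% of Kupffer-like cells (0.477 to 1.53%). It was found in 0 of 281 T cell-like cells, with the same limits on the share of cells with a UMI, 1.07% and 1.30%. The unthinned shares were 8.01%, 4.25% and 0.356%.

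Mfge8 was highest in the Gpnmb and Trem2 class of control, with 589 CPM from 449 UMIs. It exceeded Kupffer-like cells, with 28.0 CPM, 21.0 times (15.2 to 29.9) and mesenchymal-like cells, with 165, by 3.56 times (2.83 to 4.53). Cholangiocyte-like cells held 528 in control, which overlapped the Gpnmb and Trem2 class, and 681 at IRE 1 day. The class level rested on few cells: 128 of 621 cells held Mfge8, the top cell 67 UMIs and the next 36. Without the top cell it was 509, without the 5% of barcodes with the most UMIs 292, as a mean over cells 383 and without barcode sequences found in more than 1 library 510. Thinned, 7.62% of the class held Mfge8 (5.65 to 10.0%) against 0.757% of Kupffer-like cells (0.379 to 1.35%), and unthinned 20.6% and 2.02%. T cell-like cells held it in 1.42% of thinned and 1.78% of unthinned cells, so that the share in Kupffer-like cells was at background.

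The share of each gene's UMIs that a class carried followed from these levels and from the make-up of the libraries. Kupffer-like cells carried 54.7% of the Axl UMIs of control (51.2 to 58.2%), 53.7% at IRE 1 day and 19.5% at IRE 7 days (12.6 to 28.0%), while they held 17.8%, 23.7% and 3.69% of the UMIs of all genes. For Mertk they carried 47.5%, 37.1% and 16.5%. Endothelial-like cells carried 13.5% of the Mertk UMIs in control and 33.5% at IRE 1 day, where they held 30.9% of the UMIs of all genes. At IRE 7 days monocyte-like cells carried more of Axl, with 24.8% (17.1 to 33.8%), and the Arg1 and Ccl2 class more of Mertk, with 23.6% (18.4 to 29.4%), in intervals that overlapped those of Kupffer-like cells. For Gas6 the leading named class was mesenchymal-like cells in control, with 27.0%, and endothelial-like cells at IRE 1 day, with 40.3%. For Mfge8 the Gpnmb and Trem2 class led in control, with 52.5%. Endothelial-like cells carried 35.9% of Mfge8 at IRE 1 day, not far from their 30.9% of all UMIs, at a level of 77.4 CPM that lay within the interval of T cell-like and B cell-like cells. Cholangiocyte-like cells carried 11.6% of the Gas6 and 13.3% of the Mfge8 UMIs of IRE 1 day from 24 cells. Of the 29 UMIs of Mfge8 at IRE 7 days, 18 lay in cells without a class.

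**Figure D3:**
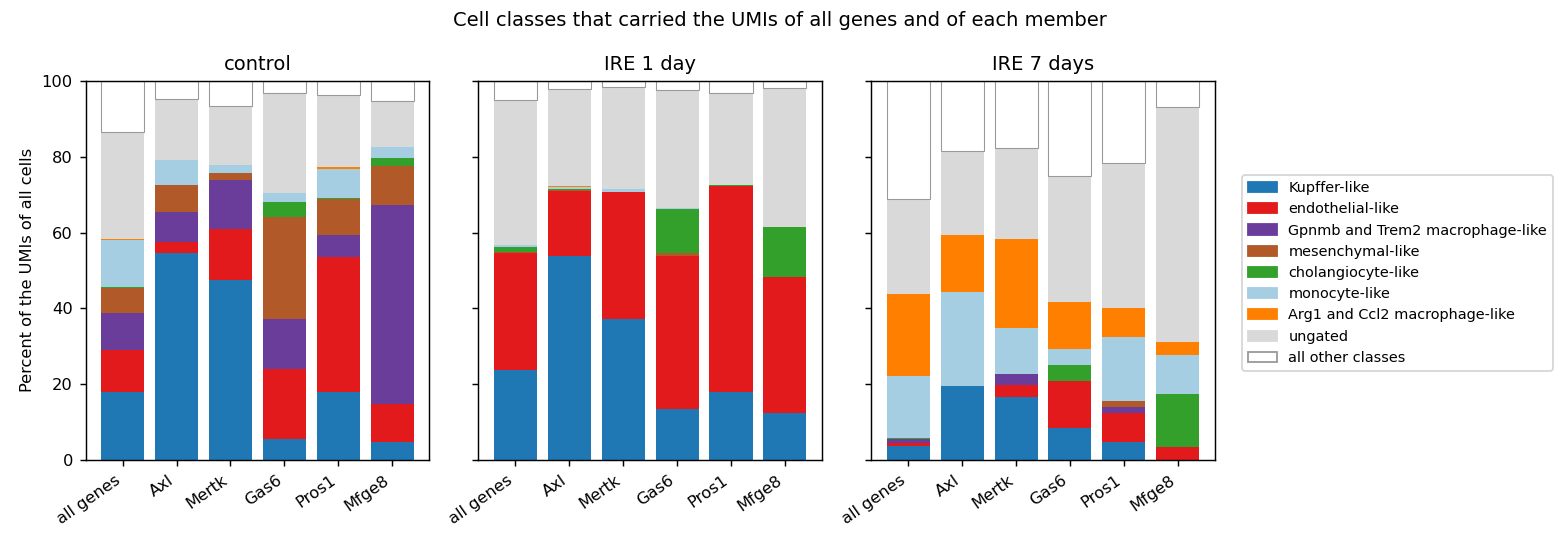
Percent of the UMIs of all cells (vertical axis) that each cell class carried, for all genes together and for each member, in the 3 libraries. Blue Kupffer-like cells carried 54.7% of Axl in control, red endothelial-like cells 40.3% of Gas6 at IRE 1 day and violet Gpnmb and Trem2 cells 52.5% of Mfge8 in control.

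Within Kupffer-like cells Axl was lower after IRE than in control, and Mertk was lower at IRE 1 day. Axl was 1.24 times lower at IRE 1 day (ratio 0.807, 0.701 to 0.929) and 1.60 times lower at IRE 7 days (ratio 0.624, 0.387 to 0.956). The log2 ratio of the latter was -0.68 and became -1.31, past 2-fold, when the gate needed 4 times the marker UMIs of any rival. Mertk was 1.15 times lower at IRE 1 day (ratio 0.871, 0.776 to 0.978) and stood at a ratio of 0.797 at IRE 7 days, with an interval of 0.564 to 1.10. Its log2 ratio at IRE 1 day, -0.20, ranged from -0.26 to -0.06 over the alternative settings. Thinned shares of control and IRE 1 day overlapped for both receptors. They were 9.36% (7.91 to 11.0%) and 7.22% (6.14 to 8.41%) for Axl, and 11.6% (9.96 to 13.3%) and 9.86% (8.61 to 11.2%) for Mertk. Over all cells the ratios of IRE 7 days were 0.362 for Axl and 0.473 for Mertk, lower than within Kupffer-like cells, whose share of cells was 2.58% there. Of the ligands, Gas6 was 3.07 times higher in Kupffer-like cells of IRE 1 day (2.07 to 4.67), at 73.1 CPM against 94.9 in the barcodes under 200 genes, and the part of free RNA in it was not tested. Pros1 and Mfge8 had ratios of 1.10 (0.784 to 1.55) and 1.23 (0.797 to 1.92). Gas6 was the 1 of 5 members called at least 2-fold higher, and 0 were called lower, against 11.2% and 3.93% of 9159 genes. At IRE 7 days 0 of 5 members were called higher and 1 lower, Mfge8 with 0 UMIs against 40, against 11.0% and 16.3% of 6908 genes. With 145 Kupffer-like cells at IRE 7 days a count of 0 allows up to 26.6 CPM, so that Mfge8 was at least 1.05-fold lower.

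Within endothelial-like cells the receptors were higher at IRE 1 day. Axl stood at 62.5 CPM against 25.4, a ratio of 2.46 (1.57 to 4.04), and Mertk at a ratio of 1.35 (1.13 to 1.60). The log2 ratio of Mertk, 0.43, ranged from 0.06 to 0.70 over the alternative settings. Gas6 had a ratio of 1.31 (1.06 to 1.64). Pros1 and Mfge8 both had a ratio of 0.815, with intervals of 0.656 to 1.02 and 0.620 to 1.08. Axl was the 1 of 5 members called higher, against 11.9% of 9524 genes, and 0 of 5 were called lower, against 3.21%. The Axl level of 62.5 lay below the 97.7 CPM of the barcodes under 200 genes of that library and was within the interval of its T cell-like and B cell-like cells. The Mertk level of 269 CPM (246 to 293) overlapped the 230 of those barcodes (211 to 249). It lay above the interval of the T cell-like and B cell-like cells (29.2 to 173). In control the barcodes under 200 genes held 73.8 CPM of Mertk. Free RNA of hepatocytes moved alike, as hepatocyte gate genes took 1.40% of the UMIs of endothelial-like cells at IRE 1 day and 0.0454% in control. The part of free RNA in these ratios was not tested. At IRE 7 days the 51 endothelial-like cells held 0 UMIs of Axl, 8 of Mertk, 3 of Gas6, 5 of Pros1 and 1 of Mfge8, and no ratio to control had an interval that left out 1.

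In the myeloid classes that filled the IRE 7 days library, Mertk and Axl were below their levels in Kupffer-like cells, and Gas6 and Mfge8 had at most 3 UMIs in each of the Arg1 and Ccl2, neutrophil-like and monocyte-like classes. The 1133 cells of the Arg1 and Ccl2 class held 25.7 CPM of Axl, 86.3 of Mertk, 4.54 of Gas6, 7.57 of Pros1 and 1.51 of Mfge8. The 1220 neutrophil-like cells held 15.5, 22.3, 3.43, 18.9 and 1.72. Pros1 and Axl thus did not differ beyond counting error in neutrophil-like cells, with 11 and 9 UMIs. The 867 monocyte-like cells held 55.7 of Axl, where control monocyte-like cells held 53.7, and 21.9 of Pros1, close to the 21.2 of the whole library. They held 57.6 of Mertk, 1.90 times the level of control (1.10 to 3.27), but with at least 500 genes per barcode the log2 ratio turned from 0.92 to -0.31. Mertk in the Arg1 and Ccl2 class was 4.11 times lower than in Kupffer-like cells of the same library (2.67 to 6.27), and 42.7 CPM lay in the barcodes under 200 genes. The 38 cells of the Gpnmb and Trem2 class at IRE 7 days held 0 UMIs of Mfge8, which is at least 5.38-fold lower than the control class. This bound sets 109 CPM, the level of 3 UMIs, against a control level of 589 that fell to 292 without the 5% deepest barcodes and 383 as a mean over cells. In thinned cells 0 of 37 allows a share with a UMI of up to 8.11%, which takes in the control share of 7.62%. In the same 38 cells 7 UMIs of Mertk gave 255 CPM against 225 in control. The monocyte-gated cells of IRE 1 day held 269 of Mertk from 11 UMIs, and these are the cells led by antibody genes.

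**Figure D4:**
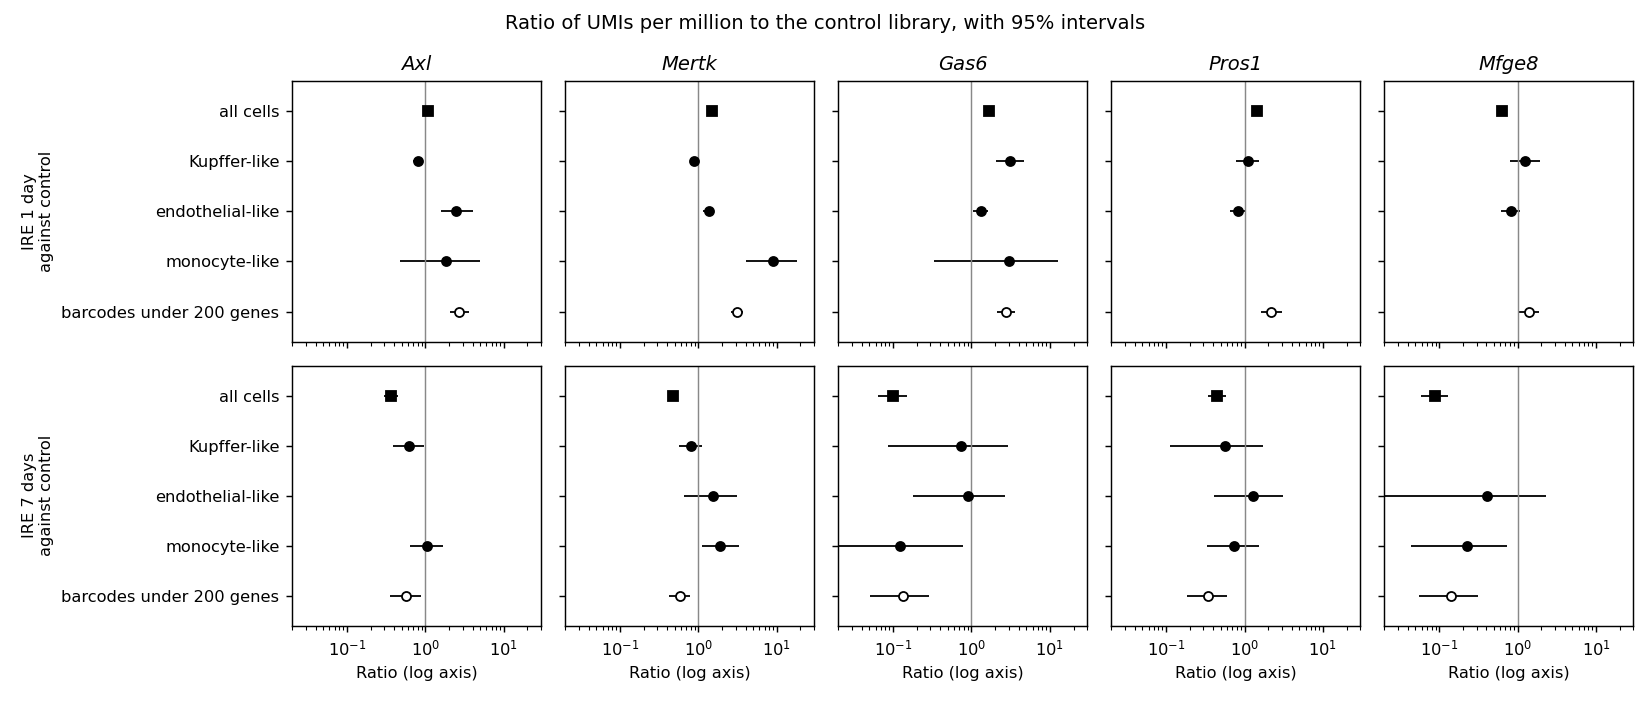
Ratio of CPM to the control library (horizontal log axes) for IRE 1 day (upper row) and IRE 7 days (lower row), in all cells (squares), in 3 classes (filled circles) and in barcodes under 200 genes (open circles), with 95% intervals, cut at the axis where wider. The vertical line marks a ratio of 1, and a missing point had too few UMIs. At IRE 1 day Axl lies below 1 in Kupffer-like cells and above 1 in endothelial-like cells and in barcodes under 200 genes.

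To set the make-up of the libraries beside the levels within classes, the level that each library would have was computed from its own class shares of UMIs and the class levels of control. For Axl this gave 107 CPM at IRE 1 day and 48.2 at IRE 7 days, against 111 and 36.9 measured. For Mertk it gave 205 and 104, against 248 and 79.1. For Mfge8 it gave 63.9 at IRE 1 day, against 66.6 measured, and 41.3 at IRE 7 days, against 9.48. For Gas6 it gave 83.4 and 36.6, against 129 and 7.85. The computed and measured values of IRE 1 day thus lay close together for Axl and Mfge8 and apart for Mertk and Gas6, and at IRE 7 days every member was measured below its computed value, Gas6 and Mfge8 by the widest margin. For Pros1 it gave 70.5 and 50.3, against 69.1 and 21.2. All values of IRE 7 days rest in part on the Arg1 and Ccl2 class, with 21.6% of that library's UMIs, whose control level came from 24 cells with 2 UMIs of Pros1, 1 of Mertk and 0 of Axl, Gas6 and Mfge8. Cells without a class entered as a class of their own.

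**Figure D5:**
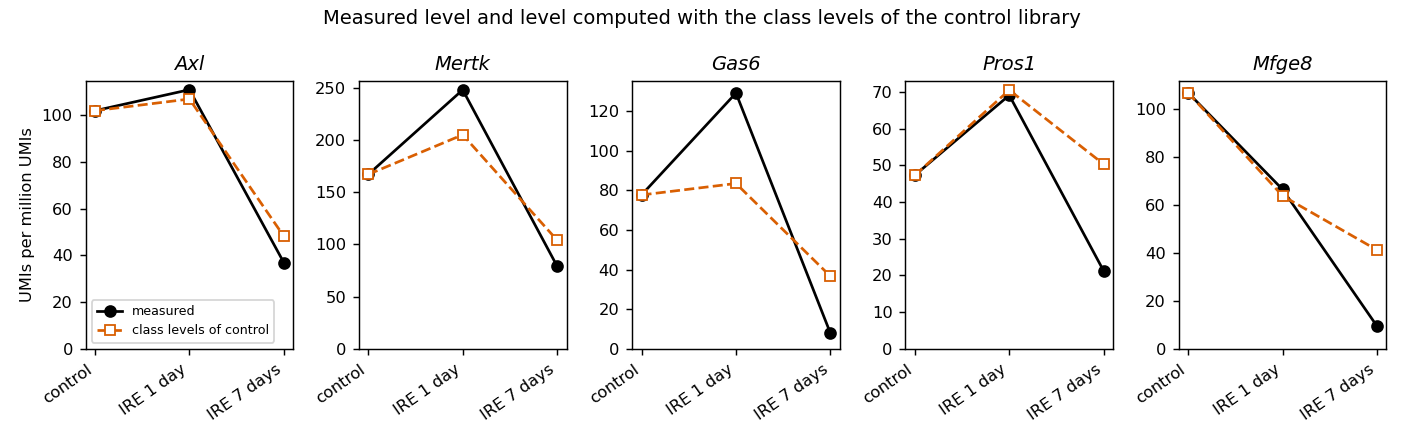
CPM of each member by library (vertical axes, 1 scale per gene), as measured (filled circles) and as computed from the class levels of control with each library's own class shares (open squares). Both lines coincide in control by construction, and the largest relative gaps are those of Gas6 and Mfge8 at IRE 7 days.

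For each member, the genes with the most similar pattern were taken by the correlation of log2 levels over 32 class-by-library points, among 8025 genes. The points share libraries, depth and free RNA, and the correlations are given as descriptions. Axl was most like Abca9 (r = 0.819), C6 (0.781), Klhl9 and Cela1 (0.772 each). Mertk was most like Abcg1 (0.815), a cholesterol exporter, Rgl1 (0.809), the mannose receptor Mrc1 (0.789) and the lysosomal protease Lgmn (0.777). Gas6 was most like Gabarapl1 (0.847), Ctnnb1 (0.832), Uaca (0.826) and Tns1 (0.821). Pros1 was most like Cdc42ep2 (0.794), Gm10605 (0.756), Pim3 (0.751) and the scavenger receptor Scarf1 (0.728), and Mfge8 like Aplp2 (0.738), Lamb2 (0.733), Fgfr1 (0.730) and Palmd (0.717). Among the members, Gas6 and Mfge8 had the highest value (0.634), Mertk and Pros1 0.523, Axl and Mertk 0.442, Mertk and Gas6 0.062 and Mertk and Mfge8, the lowest pair, -0.230.

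The other genes of dead cell removal were read from a list of 72 symbols, of which 71 are in the files. At IRE 1 day 3 of 66 with enough UMIs were at least 2-fold higher than control (4.55%, against 13.6% of all genes) and 10 lower (15.2%, against 7.14%), with a median log2 ratio of -0.08 against 0.05 over all genes. The higher genes were C3, an opsonin of the complement system (889 CPM against 311), the phosphatidylserine receptor Stab2 of sinusoidal endothelium (373 against 143) and the adhesion kinase gene Ptk2 (21.8 against 10.7). The lowest ratios were those of Anxa1 (22.9 against 163), the integrin subunit Itgam (29.8 against 174) and Lgals3 (227 against 1079). In the IRE 7 days library 15 of 63 were higher (23.8%, against 8.79% of all genes) and 13 lower (20.6%, against 26.3%), with a median of 0.23 against -0.29 over all genes. Thbs1, a bridging molecule for Cd36 and integrins, stood at 1745 against 24.5, the receptor Cd14 at 1705 against 62.4 and the nucleotide receptor P2ry2 at 11.1 against 1.25. Twist1, a gene tied to feedback from Axl, stood at 0.981 against 7.99 on 3 UMIs (ratio 0.123, 0.0247 to 0.375), Stab2 at 17.7 against 143 and Ptk2 at 1.96 against 10.7. Of the other bridging molecules and opsonins, 2 of 8 were higher and 4 lower, and of the genes for shedding of the TAM receptors or feedback from them 3 of 6 were higher and 1 lower.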

How the data were processed

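The authors pooled tissue of 3 livers per library, aligned the reads with STAR 2.5.2a (the submitters' processing notes) and, per the file headers, made tables of UMI counts by gene and barcode with the DigitalExpression program of Drop-seq tools, which kept sense-strand reads. The deposited counts are not normalized. The notes name the build hg19 although the genes are mouse genes, and no mouse build is given in the sources used here, so that counts carry no coordinates. The libraries held 10032574, 8563287 and 4580021 UMIs.

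Barcodes with at least 200 genes were kept as cells, doublets were not called, and UMIs were summed per library and class. Levels are CPM (counts per 1000000 UMIs of the library or class) with exact Poisson intervals, shares have exact binomial intervals and ratios conditional binomial intervals, at 95%, which cover counting error only. A count of 0 was read as at most 3 UMIs. Since each condition was a single library, nothing was tested. Classes needed 20 cells, class ratios 10 UMIs in the pair of libraries and calls 20 UMIs and 2-fold. Shares were taken after thinning to 300 UMIs (seed 1). Similar genes were the 4 with the highest Pearson correlation of log2(CPM + 10), over points with at least 20000 UMIs, among genes with at least 200 UMIs. From the pathway list, the 3 largest rises and falls against control and Tyro3 were named. The members, markers and lists were chosen with earlier results of these data known. The 2-fold calls, the Poisson and ratio intervals and the ranking of similar genes were tested on simulated data. The gates and the thinning were not. All steps were run in Python with numpy and scipy.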

Additional observations from a re-analysis of the deposited data

Results flagged for a closer look

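Among the barcodes under 200 genes, which were not taken as cells, those of IRE 1 day held more of 4 members than those of control. Axl stood at 97.7 CPM there against 36.2, Mertk at 230 against 73.8, Gas6 at 94.9 against 34.7 and Pros1 at 67.2 against 30.7. For Axl, Mertk and Pros1 these levels overlapped those of the cells of the same library. Mitochondrial genes took 52.7% of the UMIs of these barcodes in control and 38.7% at IRE 1 day. The levels were not corrected for this difference.

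Several ratios to control pointed in opposite directions in different cell classes, each with an interval that left out 1. Axl at IRE 1 day had a ratio of 2.46 in endothelial-like cells and 0.807 in Kupffer-like cells. The endothelial-like level of 62.5 CPM lay below the 97.7 of the barcodes under 200 genes, whose own ratio to control was 2.70. It also lay within the interval of T cell-like and B cell-like cells (14.4 to 136). Mertk at IRE 1 day had a ratio of 8.84 in monocyte-gated cells (4.00 to 18.1, from 11 UMIs) and 1.35 in endothelial-like cells, against 0.871 in Kupffer-like cells. The monocyte-gated cells were led by antibody genes, and 4 of their 11 UMIs came from 1 cell. Their level of 269 CPM, or 174 without that cell, stood beside 230 in the barcodes under 200 genes and 79.5 in T cell-like and B cell-like cells. Mertk at IRE 7 days had a ratio of 1.90 in monocyte-like cells and 0.292 in neutrophil-like cells (0.123 to 0.699). The former turned to a log2 ratio of -0.31 with at least 500 genes per barcode. The neutrophil-like levels, 76.6 CPM in control and 22.3 at IRE 7 days, stood beside 73.8 and 42.7 in the barcodes under 200 genes. The differences between classes were not tested, since each condition was a single library.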

How the results depend on the processing

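No paired analysis was possible because each condition was a single library. Of 180 alternatives to the ratios over all cells, 148 stayed within the counting interval and 32 moved beyond it, with 1 change of sign, in Axl at IRE 1 day against control with at least 500 genes. All values here are log2 ratios. For Axl, IRE 1 day against control was 0.28 with every barcode and -0.08 with at least 500 genes, IRE 7 days against control -1.83 with at most 20% mitochondrial UMIs, and IRE 7 days against IRE 1 day -1.28 with at least 500 genes and -1.94 without mitochondrial and hepatocyte genes. For Mertk, IRE 1 day against control was 0.71 with every barcode, 0.39 with at least 300 genes, 0.03 with at least 500, 0.36 with at most 20% mitochondrial UMIs, 0.77 without the 5% deepest barcodes and 0.83 as a mean over cells. IRE 7 days against control was -1.37 with at most 20% mitochondrial UMIs, -1.35 without mitochondrial genes, -1.35 also without hepatocyte genes and -1.31 in gated cells. IRE 7 days against IRE 1 day was -1.86 with every barcode, -1.16 with at least 500 genes, -1.94 without mitochondrial genes, -2.00 also without hepatocyte genes, -1.88 as a mean over cells and -1.90 in gated cells. For Pros1, IRE 1 day against control was 0.17 with at least 500 genes and 0.30 with at most 20% mitochondrial UMIs. With at least 500 genes, IRE 7 days fell short of 2-fold, at -0.69 against control and -0.87 against IRE 1 day, and the latter was -2.13 in gated cells. For Mfge8, IRE 1 day against control was -0.99 with at least 500 genes, -0.23 without the 5% deepest barcodes, -0.27 as a mean over cells and -0.97 in gated cells, and in gated cells IRE 7 days was -4.72 against control and -3.75 against IRE 1 day. Within endothelial-like cells, Mfge8 at IRE 7 days, main value from 1 UMI, reversed to 0.47 against control and 0.80 against IRE 1 day with a gate lead above 1. Mertk in monocyte-like cells, IRE 7 days against control, turned from 0.92 to -0.31 with at least 500 genes, and Axl in Kupffer-like cells went from -0.68 to -1.31 with a gate lead of 4. The alternative without the cell with the most UMIs of the gene was chosen after seeing the data. The causes were not tested, and classes with few UMIs at IRE 7 days limit all ratios there.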
